A study of Schizosaccharomyces pombe with 21 samples.

Results

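The genes described here encode transcription factors TFIIIB and TFIIIC and the La protein of fission yeast (Schizosaccharomyces pombe). They were chosen by name from a fixed list of 9 symbols, matched to the count table through the systematic identifiers of the authors' tables. All 9 are among the 6988 genes of the table. They are the TFIIIB genes brf1 (SPBC13E7.10c) and bdp1 (SPCC1919.14c), the TFIIIC genes sfc1 (SPAC6F12.11c), sfc3 (SPBC336.07), sfc4 (SPCC16C4.14c), sfc6 (SPBC21H7.05), sfc7 (SPAC1250.07) and sfc9 (SPBC8D2.07c), and the La gene sla1 (SPAC57A10.10c). Of these, 8 were tested among 6392 genes, and sfc7 had no counts.

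RNA polymerase III transcribes tRNA genes, 5S rRNA genes and a few other genes for short RNAs. At a tRNA gene TFIIIC recognises the A box and B box inside the gene and places TFIIIB upstream of it, and TFIIIB, made of Brf1, Bdp1 and the TATA-binding protein, recruits the polymerase. La binds the run of uridines at the end of each new transcript and protects it while it is processed and folded.

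The samples were 21 RNA-seq libraries of polyadenylated RNA from strain AGP72, genotype h-, in 7 groups of 3 biological replicates. The groups were cells starved of phosphate in ePMGT medium lacking phosphate for 2, 4 or 8 h in the presence of 100 µg/ml cycloheximide, an inhibitor of translation elongation, cells starved for 2, 4 or 8 h with no drug, and log-phase cells in YES medium at 0 h. Every comparison with 0 h therefore holds the change of medium too, and the comparisons of cycloheximide with 0 h hold the drug as well. All 6 starved groups are compared with the same 0 h libraries. The labels name no change in any of the 9 genes.

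Total counts per library ran from 22079413 to 33563867, and the 8 tested genes had between 281 and 15545 counts in a library. Levels are given as CPM, the usual unit of counts scaled to library size, and since they are not divided by gene length they are compared only within a gene. Of 8 listed markers of M cells, the mating type of an h- strain, 7 were in the table and 6 had counts, and mat1-Mc was at 0 in all libraries. Their summed level ran from 72.8 to 75 CPM with cycloheximide at 2 h, 132 to 133 CPM at 4 h and 421 to 523 CPM at 8 h, and without drug from 148 to 164 CPM at 0 h, 208 to 248 CPM at 2 h, 392 to 413 CPM at 4 h and 943 to 1430 CPM at 8 h. Single M markers differed in direction: from 0 h to 2 h of drug, mfm3 means went from 1.24 to 9.97 CPM and mfm2 means from 58.7 to 4.03 CPM. The P-cell markers map2, map3 and sxa1, the 3 of 5 in the table, summed to between 428 and 798 CPM over all libraries. Most of this was sxa1, at 464.5 CPM at 0 h, where map2 and map3 averaged 6.50 and 14.7 CPM. At 2 h of drug map2 averaged 56.3 CPM and map3 11.6 CPM. The part of these markers in the results below was not tested. In such a bulk culture, fewer cells with a transcript and less of it per cell cannot be told apart.

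**Figure D1:**
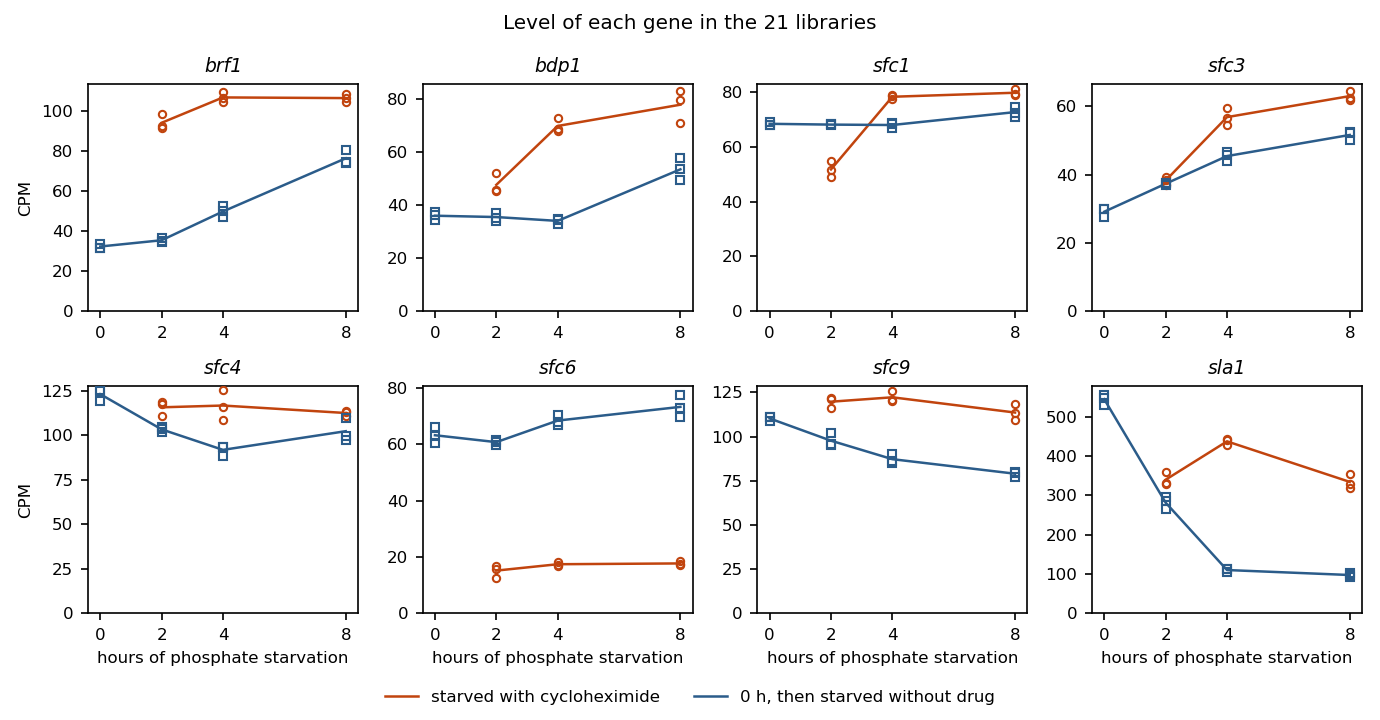
Level in CPM (vertical axes, each starting at 0) of the 8 tested genes against hours of phosphate starvation, with cycloheximide (red circles) and at 0 h and without drug (blue squares). Points are libraries and lines join the means of 3, and the red and blue points of sla1 and sfc6 stand apart at every time, with sla1 above and sfc6 below its level without drug.

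The TFIIIB genes brf1, which encodes the subunit related to TFIIB, and bdp1 had higher levels under cycloheximide. Both also had a higher level at 8 h without drug than at 0 h, by more than 2-fold only for brf1. With cycloheximide brf1 had 98.6, 92.5 and 91.6 CPM at 2 h, 104.8, 109.5 and 106.5 CPM at 4 h, and 104.5, 108.7 and 106.6 CPM at 8 h. Without drug it had 33.7, 31.6 and 31.9 CPM at 0 h, 35.3, 36.6 and 34.7 CPM at 2 h, 52.6, 47.2 and 49.95 CPM at 4 h, and 80.5, 74.1 and 74.9 CPM at 8 h. All 9 libraries with drug lay above all 12 without it, and without drug the 4 time points followed each other with no overlap of libraries. With drug the 4 h and 8 h libraries overlapped, and the 2 h libraries lay below them.

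A gene is called here at a Benjamini-Hochberg adjusted p below 0.05 in edgeR's quasi-likelihood test over all 6392 genes and with a fold change of 2 or more, and the words rose and fell are kept for such calls. Log2 fold changes are given with their standard error. Without drug brf1 rose at 8 h by 1.24 ± 0.05 over 0 h (2.36-fold, adjusted p = 4.27e-18), where 34.6% of all genes were called. At 4 h its change of 0.62 ± 0.05 was under 2-fold. With cycloheximide it rose over 0 h by 1.54 ± 0.05 at 2 h, 1.72 ± 0.05 at 4 h and 1.72 ± 0.05 at 8 h, against a background of 31.5%, 29.6% and 26.8% of genes called. Its adjusted p was at most 8.50e-20 in these comparisons.

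Against starved cells of the same time, the brf1 difference made by the drug became smaller with time. It was 1.41 ± 0.05 at 2 h and 1.10 ± 0.04 at 4 h, both called, and 0.48 ± 0.04 at 8 h, under 2-fold. Among all genes 29.3%, 40.8% and 37.9% were called at these times. The drug effect at 8 h minus that at 2 h was -0.93 ± 0.06 (adjusted p = 8.48e-13 in edgeR's quasi-likelihood test), which is past the p threshold and under 2-fold.

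The other TFIIIB gene, bdp1, encodes the SANT-domain subunit that stabilises the complex on DNA. With cycloheximide it had 51.9, 45.1 and 45.8 CPM at 2 h, 68.0, 72.7 and 68.5 CPM at 4 h, and 70.7, 82.9 and 79.7 CPM at 8 h. Without drug it had 34.2, 37.5 and 36.3 CPM at 0 h, 37.0, 34.1 and 35.3 CPM at 2 h, 34.6, 34.4 and 32.9 CPM at 4 h, and 57.5, 49.4 and 53.4 CPM at 8 h. The 0 h, 2 h and 4 h libraries without drug overlapped, and the 8 h libraries lay above them.

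With drug bdp1 rose over 0 h at 8 h by 1.12 ± 0.06 (2.17-fold, adjusted p = 3.44e-14, edgeR), and its 4 h value of 0.96 ± 0.06 lay just under 2-fold. That 4 h value passed 2-fold with the RLE size factors, with library size alone and in DESeq2, at 1.02 to 1.07. Against starved cells of the same time bdp1 was called at 4 h (1.04 ± 0.06), where scaling by library size alone gave 0.94 and ended the call. At 8 h without drug the change over 0 h was 0.57 ± 0.07.

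The TATA-binding protein gene tbp1, whose product is also a subunit of TFIIIB, averaged with drug 1670 ± 55.0 CPM at 2 h, 1234 ± 31.2 CPM at 4 h and 904 ± 31.1 CPM at 8 h. Without drug its means were 385.3 ± 3.69 CPM at 0 h, 347.2 ± 9.71 CPM at 2 h, 388 ± 1.81 CPM at 4 h and 544.7 ± 19.5 CPM at 8 h (SD, n = 3). It was highest at 2 h of drug, where brf1 and bdp1 had their lowest levels under drug. tbp1 rose against starved cells of the same time by 2.27 ± 0.04 at 2 h and 1.67 ± 0.04 at 4 h.

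Within a library the ratio of brf1 to bdp1 counts does not depend on the scaling, and it is given without a test. The log2 ratio with drug was 0.99 ± 0.06 at 2 h, 0.62 ± 0.02 at 4 h and 0.46 ± 0.09 at 8 h. Without drug it was -0.15 ± 0.12 at 0 h, 0.00 ± 0.09 at 2 h, 0.55 ± 0.09 at 4 h and 0.52 ± 0.06 at 8 h (SD, n = 3). At 2 h the libraries with drug lay far above those without, and at 4 h and 8 h they overlapped.

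The TFIIIC genes did not move together. sfc6 was the gene of the complex with the widest range of group means, 4.85-fold, and its lowest levels were those under cycloheximide. sfc3 differed from it in direction, and the levels of sfc1, sfc4 and sfc9 ranged over 1.54-fold, 1.34-fold and 1.55-fold between groups.

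In budding yeast the counterpart of Sfc6, Tfc6, acts with the subunit that binds the B box. With cycloheximide sfc6 had 16.9, 15.9 and 12.6 CPM at 2 h, 16.9, 18.1 and 17.1 CPM at 4 h, and 17.3, 17.2 and 18.5 CPM at 8 h. Without drug it had 60.5, 63.1 and 66.2 CPM at 0 h, 59.9, 61.5 and 61.0 CPM at 2 h, 70.6, 68.1 and 66.8 CPM at 4 h, and 77.4, 69.7 and 72.9 CPM at 8 h. The 9 libraries with drug formed a narrow band far below the 12 without it. Within the drug course the 4 h libraries overlapped those at 2 h and those at 8 h, while the 2 h libraries all lay below those at 8 h.

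sfc6 fell by 2.00 ± 0.07 at 2 h, 1.98 ± 0.07 at 4 h and 2.05 ± 0.06 at 8 h against starved cells of the same time, which is 3.99-fold, 3.94-fold and 4.15-fold lower (adjusted p = 7.56e-19, 2.91e-19 and 1.00e-19, edgeR). These values stood at percentile 2.8, 7.02 and 8.15 of the log2 fold changes of all genes, counted from the lowest. Against 0 h the changes with drug were -2.05 ± 0.07, -1.86 ± 0.07 and -1.84 ± 0.07, all called. Without drug the largest change of sfc6 from 0 h with an adjusted p below 0.05 was 0.21 ± 0.06, at 8 h.

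sfc3 encodes the subunit that binds the B box. With drug it had 38.4, 37.0 and 39.4 CPM at 2 h, 56.6, 59.5 and 54.4 CPM at 4 h, and 61.9, 64.5 and 62.5 CPM at 8 h. Without drug it had 30.0, 27.6 and 29.8 CPM at 0 h, 37.4, 37.0 and 37.6 CPM at 2 h, 45.8, 43.9 and 46.5 CPM at 4 h, and 52.2, 50.2 and 52.4 CPM at 8 h. Both courses went up with time, and the 2 h libraries with and without drug overlapped while those at 4 h and 8 h did not.

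Only at 8 h of drug was sfc3 called against 0 h in this fit, at 1.11 ± 0.05 (2.16-fold, adjusted p = 3.53e-17, edgeR). At 4 h of drug it was 0.96 ± 0.05, and 1.00 to 1.07 under 4 of the alternatives, which call it. Without drug its changes from 0 h were 0.36 ± 0.05, 0.64 ± 0.05 and 0.82 ± 0.05 at 2, 4 and 8 h, of which the 8 h value reached 1.03 when scaled by library size alone. The drug made differences of 0.32 ± 0.04 at 4 h and 0.29 ± 0.04 at 8 h.

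The pair sfc3 and sfc6 was set side by side after their values were seen. The log2 ratio of sfc3 to sfc6 counts in a library was 1.35 ± 0.25 at 2 h, 1.71 ± 0.04 at 4 h and 1.83 ± 0.07 at 8 h with drug. Without drug it was -1.12 ± 0.10 at 0 h, -0.70 ± 0.03 at 2 h, -0.59 ± 0.06 at 4 h and -0.51 ± 0.05 at 8 h (SD, n = 3). All libraries with drug had more sfc3 than sfc6 counts, and all libraries without it had fewer.

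**Figure D2:**
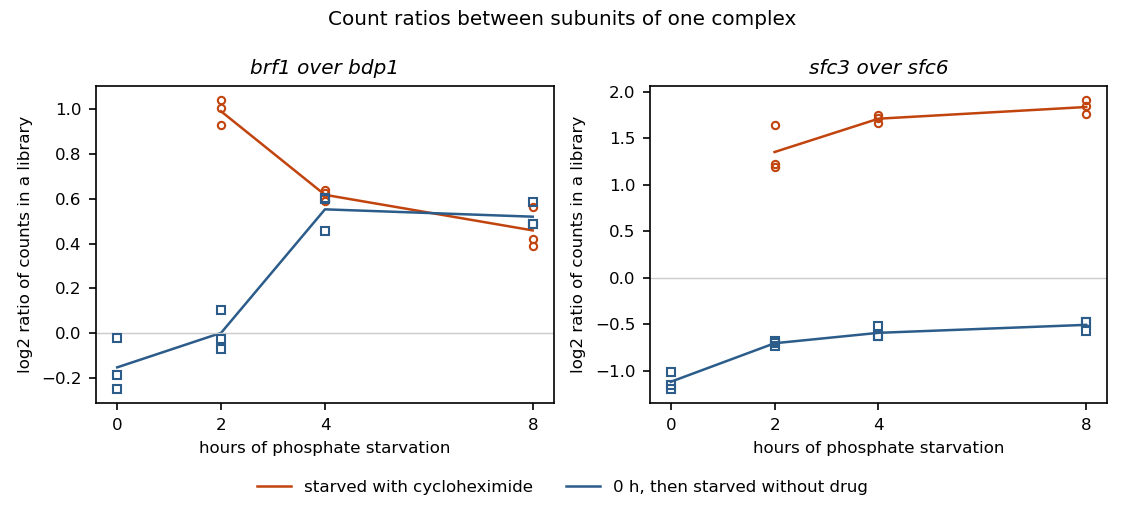
Log2 ratio of counts within each library (vertical axes) of brf1 over bdp1 and of sfc3 over sfc6, against hours of phosphate starvation, with cycloheximide (red circles) and at 0 h and without drug (blue squares). The sfc3 over sfc6 ratios with drug average 1.35 to 1.83 and those without drug -1.12 to -0.51. The brf1 over bdp1 ratios of both courses overlap at 4 h and 8 h.

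sfc1 encodes the A box associated subunit. Its means with drug were 51.8 ± 2.96 CPM at 2 h, 78.4 ± 0.697 CPM at 4 h and 79.8 ± 1.23 CPM at 8 h. Without drug they were 68.5 ± 0.600 CPM at 0 h, 68.2 ± 0.287 CPM at 2 h, 68.0 ± 1.03 CPM at 4 h and 72.8 ± 1.76 CPM at 8 h (SD, n = 3). The 2 h drug libraries, at 48.9 to 54.8 CPM, were the lowest of the 21, and the later drug libraries the highest.

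sfc1 was never called. The drug difference changed sign with time, at -0.39 ± 0.04 at 2 h, 0.20 ± 0.04 at 4 h and 0.13 ± 0.04 at 8 h against starved cells of the same time. The difference between the 8 h and 2 h drug effects was 0.53 ± 0.05 (adjusted p = 1.11e-09, edgeR), under 2-fold. Between 2 h and 4 h of drug sfc1 differed by 0.60 ± 0.04, bdp1 by 0.55 ± 0.06 and sfc3 by 0.57 ± 0.04, at percentiles 96.6, 95.7 and 96.2 of all genes in that comparison, where 5.94% of genes were called and none of the 8 was.

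sfc4, whose counterpart in budding yeast bridges TFIIIC to TFIIIB, and sfc9 had lower levels without drug at each time than at 0 h, none past 2-fold. sfc4 averaged 115.7 ± 4.29, 116.7 ± 8.44 and 112.5 ± 1.36 CPM at 2, 4 and 8 h with drug, and 123.1 ± 3.57, 103.3 ± 1.37, 91.8 ± 2.88 and 102.2 ± 6.73 CPM at 0, 2, 4 and 8 h without it (SD, n = 3). Its changes from 0 h without drug were -0.25 ± 0.05, -0.42 ± 0.05 and -0.27 ± 0.05, with the lowest level at 4 h.

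sfc9 averaged 119.7 ± 3.24, 122.2 ± 3.27 and 113.6 ± 4.62 CPM at 2, 4 and 8 h with drug, and 110.3 ± 1.43, 97.7 ± 3.58, 87.2 ± 2.67 and 79.0 ± 1.60 CPM at 0, 2, 4 and 8 h without it (SD, n = 3). Without drug its libraries went down in time order with no overlap, with changes from 0 h of -0.18 ± 0.04, -0.34 ± 0.04 and -0.48 ± 0.04. The drug difference at matched times was 0.29 ± 0.04, 0.49 ± 0.04 and 0.53 ± 0.04. Over the 7 groups sfc4 and sfc9 had the smallest root mean square difference in log2 level after centring of any pair of the 8 genes, 0.141. sfc6 and sla1 had the largest, 1.65. Centring leaves the width of a course in this measure, so genes with narrow ranges tend to score as close. Shape alone was not compared.

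The mean log2 level of sfc1 and sfc4 minus that of sfc3, sfc6 and sfc9 was 0.92 ± 0.03, 0.95 ± 0.04 and 0.92 ± 0.05 at 2, 4 and 8 h with drug. Without drug it was 0.64 ± 0.06, 0.47 ± 0.01, 0.29 ± 0.03 and 0.37 ± 0.04 at 0, 2, 4 and 8 h (SD, n = 3). The libraries with drug lay above those without it, with no overlap. With sfc6 left out, an alternative chosen after the values were seen, the same difference was 0.19 ± 0.09, 0.20 ± 0.04 and 0.16 ± 0.05 at 2, 4 and 8 h with drug, and 0.69 ± 0.05, 0.47 ± 0.01, 0.33 ± 0.04 and 0.43 ± 0.06 at 0, 2, 4 and 8 h without it (SD, n = 3). The libraries with drug then lay below all those without it, so the position of the drug groups in this ratio rests on sfc6.

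sfc7 was listed at 0 counts in all 21 libraries, which allows a level of up to 0.0845 to 0.145 CPM, taken as 3 counts per library, as far as its reads were counted at all. In assembly ASM294v3 sfc7 lies within ubc14, a ubiquitin-conjugating enzyme gene, on the same strand. ubc14 had 20.6 ± 0.812, 22.8 ± 1.29 and 23.4 ± 1.48 CPM at 2, 4 and 8 h with drug, and 42.1 ± 1.00, 42.6 ± 1.07, 53.7 ± 0.553 and 48.1 ± 4.55 CPM at 0, 2, 4 and 8 h without it (SD, n = 3). No source used here says how reads shared by both genes were counted, so no level of sfc7 was read from these data.

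**Figure D3:**
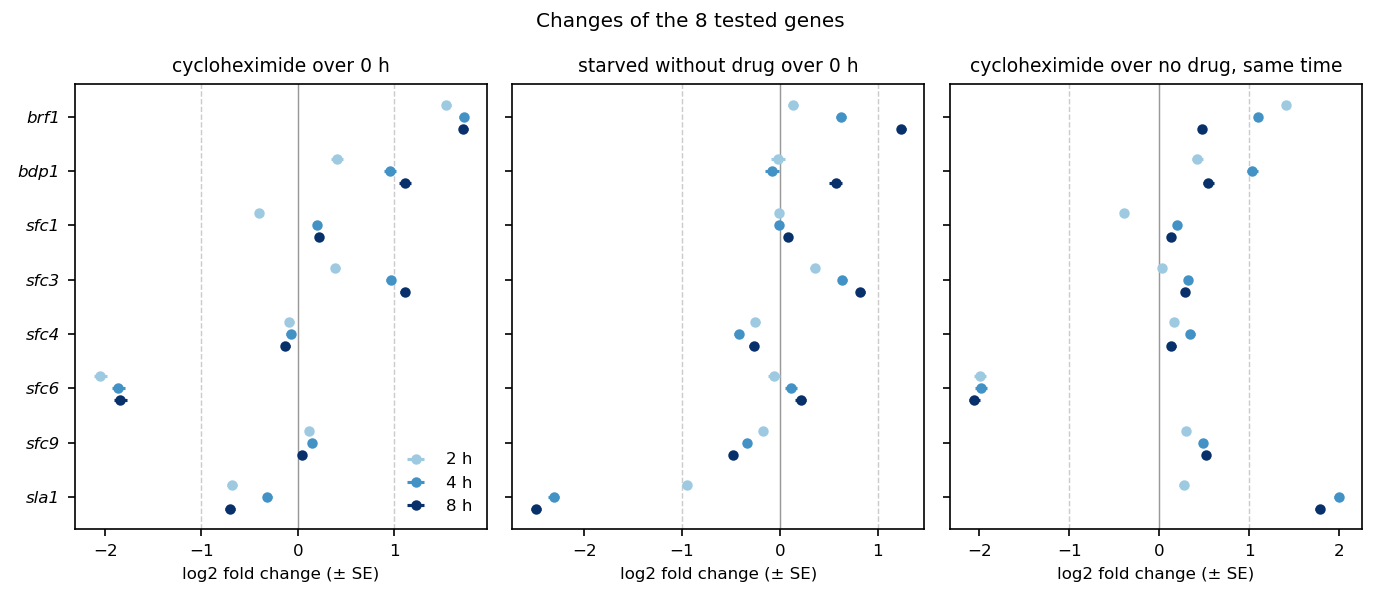
Log2 fold change ± SE (horizontal axes) of the 8 tested genes at 2, 4 and 8 h (light to dark blue), for cycloheximide over 0 h, starvation without drug over 0 h, and cycloheximide over no drug at the same time. Dashed lines mark 2-fold, and sfc6 lies near -2 in both panels with drug while sla1 lies between -2.49 and -0.95 without drug and reaches 2.00 over starved cells at 4 h.

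sla1, the La gene, had its highest level at 0 h and the deepest fall of the 8 genes in starvation without drug. With cycloheximide it had 359.1, 330.8 and 328.6 CPM at 2 h, 428.4, 443.4 and 439.7 CPM at 4 h, and 319.6, 328.3 and 354.1 CPM at 8 h. Without drug it had 530.9, 548.4 and 554.1 CPM at 0 h, 263.7, 285.2 and 294.8 CPM at 2 h, 103.6, 112.7 and 112.5 CPM at 4 h, and 102.5, 91.2 and 97.0 CPM at 8 h. No drug library was as low as any library without drug at the same time, and none was as high as the 0 h libraries.

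Without drug sla1 fell by 2.31 ± 0.05 at 4 h and 2.49 ± 0.05 at 8 h relative to 0 h, which is 4.97-fold and 5.62-fold lower (adjusted p = 3.19e-22 and 4.24e-23, edgeR). It was the only gene of the 8 called lower at these times, and the only one called at all at 4 h, where 28.1% of all genes were called. At 2 h its change was -0.95 ± 0.05, just under 2-fold, in a comparison where 5.74% of genes and none of the 8 were called. On the log2 scale the step between 2 h and 4 h was the largest, with a called change of -1.36 ± 0.05 at 4 h against 2 h (14.2% of genes called), while 8 h against 4 h gave -0.18 ± 0.05, where 6.54% of genes and none of the 8 were called.

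With drug the sla1 changes from 0 h were -0.68 ± 0.05, -0.32 ± 0.05 and -0.71 ± 0.05 at 2, 4 and 8 h, none past 2-fold. Against starved cells of the same time sla1 was 0.27 ± 0.05 at 2 h, and rose by 2.00 ± 0.05 at 4 h and 1.79 ± 0.05 at 8 h (3.99-fold and 3.45-fold, adjusted p = 1.81e-21 and 1.81e-20, edgeR). The drug effect at 8 h exceeded that at 2 h by 1.51 ± 0.07 (adjusted p = 1.01e-15, edgeR), the only called difference of drug effects among the 8 genes, where 32.0% of all genes were called. Within the drug course, 8 h against 4 h gave -0.39 ± 0.05, in a comparison with 7.88% of genes and none of the 8 called.

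Over the 8 genes the median log2 fold change stayed near that of all genes in starvation without drug, at -0.04, -0.05 and 0.15 at 2, 4 and 8 h, against -0.02, 0.00 and -0.01 for all genes. For cycloheximide against starved cells of the same time it was 0.22, 0.42 and 0.38, against -0.04, -0.04 and -0.03 for all genes. In that comparison 2, 4 and 2 of the 8 genes were called at 2, 4 and 8 h, where 29.3%, 40.8% and 37.9% of all genes were. Against 0 h with drug 2, 2 and 4 of 8 were called, where 31.5%, 29.6% and 26.8% of all genes were. The counts lay on both sides of these shares, furthest above at 8 h of drug over 0 h, and were not tested as a set.

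Other genes of RNA polymerase III transcription give the setting of these values. Of 13 tested polymerase III subunit genes, the ones in the table among 20 listed symbols, 9 fell at 4 h and 10 at 8 h without drug, with medians of -1.31 and -1.14, and none was called at 2 h. Among all genes 13.9% were called lower at 4 h and 15.6% at 8 h, and 5.74% were called in either direction at 2 h. The largest falls were those of rpc11, which encodes the subunit for RNA cleavage and termination, at -2.08 and -1.77 at 4 and 8 h, and rpc40, a subunit shared with RNA polymerase I, at -1.92 and -1.94. Shared subunits were not counted apart from those of polymerase III alone. Against starved cells of the same time, 3, 7 and 8 of the 13 rose with drug at 2, 4 and 8 h and none fell, with 15.8%, 19.9% and 17.1% of all genes called higher. The largest subunit gene rpc1 led at 2 h with 1.76 and at 4 h with 2.58, and rpc11 rose by 2.39 at 4 h and 2.097 at 8 h. Against 0 h, drug treatment left 1 higher (rpc1, 1.18) and 1 lower (rpc19, -1.34) at 2 h, 1 higher (rpc1, 1.27) at 4 h, and none called at 8 h. Of all genes 31.5%, 29.6% and 26.8% were called in these comparisons, in either direction.

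Among 7 tested genes of La-related proteins and of tRNA end processing and export, 3 fell at 4 h and at 8 h without drug, where 13.9% and 15.6% of all genes were called lower. These were slr1, which encodes a La-related protein (-1.78 and -1.84), trz2, which encodes a tRNA 3′ end endonuclease (-2.09 and -1.89), and los1, which encodes a tRNA exporter (-1.63 and -1.62). Against starved cells slr1 and los1 rose with drug at 2 h by 1.545 and 1.38, and all 3 rose at 4 h, by 2.48, 3.15 and 2.31, and at 8 h, by 1.86, 2.92 and 2.17. Among all genes 15.8%, 19.9% and 17.1% were called higher at these times. The other trz gene of the list, trz1, was not called without drug over 0 h, at 0.049 at 4 h and 0.055 at 8 h. Which of the trz proteins acts on polymerase III transcripts was not examined, so no change in their processing is read from trz2.

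**Figure D4:**
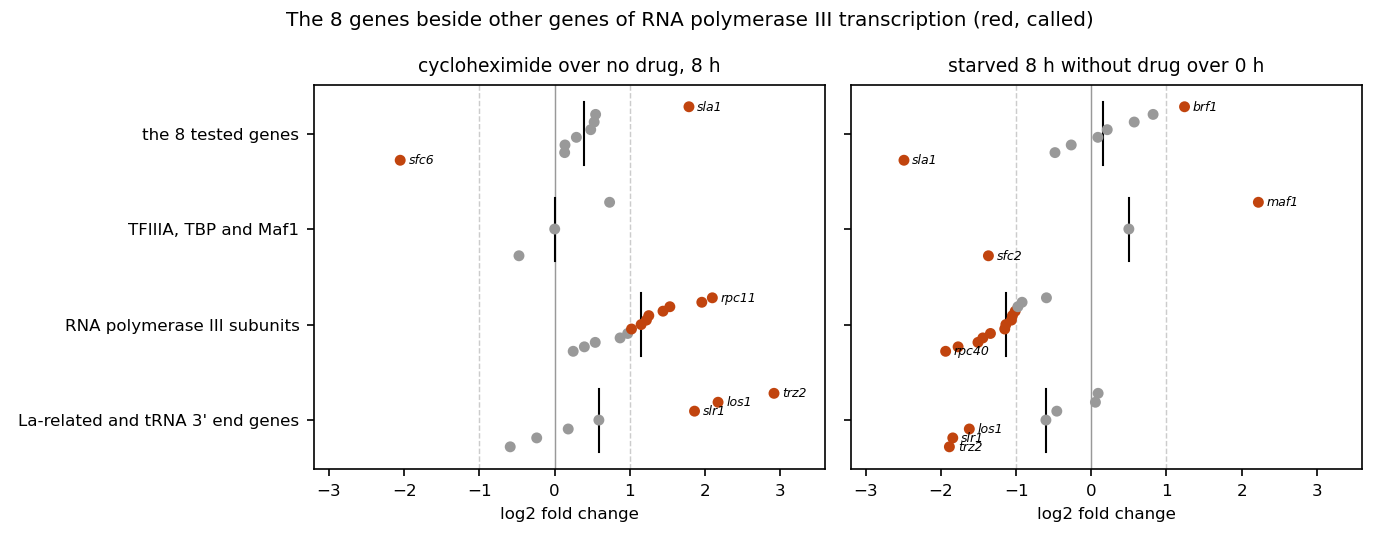
Log2 fold change (horizontal axes) at 8 h for cycloheximide over no drug and for starvation without drug over 0 h. Points are genes, red where called, vertical bars are medians of the 8 tested genes and of 3 further lists, and dashed lines mark 2-fold; of the polymerase III subunits 8 of 13 lie past 2-fold upward with drug and 10 of 13 downward without it.

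sfc2, which encodes the 5S gene factor TFIIIA, fell without drug by 1.57 ± 0.05 at 4 h and 1.37 ± 0.05 at 8 h relative to 0 h. With drug it averaged 57.8 ± 3.27, 60.2 ± 1.81 and 31.9 ± 0.963 CPM at 2, 4 and 8 h, and without drug 82.3 ± 1.73, 45.4 ± 2.92, 27.7 ± 0.200 and 31.9 ± 0.506 CPM at 0, 2, 4 and 8 h (SD, n = 3). Unlike sla1 it had the same mean with and without drug at 8 h. maf1, the gene of the polymerase III repressor named in the title of the series, rose over 0 h by 2.08 ± 0.06, 1.95 ± 0.06 and 1.75 ± 0.06 at 2, 4 and 8 h with drug, and by 2.11 ± 0.06 at 4 h and 2.22 ± 0.06 at 8 h without drug over the same 0 h libraries. Its level at 2 h was 100.6 ± 4.02 CPM with drug and 43.5 ± 0.922 CPM without (SD, n = 3).

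The polymerase III products snu6 (U6 RNA) and srp7 (signal recognition particle RNA) were present at 0.155 to 1.47 and 1.13 to 7.504 CPM as group means in these libraries of polyadenylated RNA. Both rose at 2 h with drug against starved cells, by 2.56 ± 0.44 and 2.28 ± 0.25, and at 4 h, by 2.55 ± 0.52 and 1.09 ± 0.26, and srp7 fell by 1.42 ± 0.29 at 8 h. The snu6 calls rest on few counts. Without drug snu6 had 8, 3 and 9 counts at 2 h and 7, 6 and 1 at 4 h. With drug it had 45, 44 and 31 at 2 h and 27, 19 and 22 at 4 h. The mature RNAs carry no poly(A) tail, so these levels do not measure their amount.

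Several of the 8 genes share sequence with a neighbour in assembly ASM294v3, and since no source used here says whether strand was used in counting, their reads cannot be told apart with certainty. brf1 lies within vrp1, a gene for an actin-associated protein, on the opposite strand. vrp1 had 47.9 ± 1.88, 43.0 ± 1.41 and 32.8 ± 1.21 CPM at 2, 4 and 8 h with drug, and 50.5 ± 2.05, 41.4 ± 1.12, 40.5 ± 2.36 and 30.4 ± 2.14 CPM at 0, 2, 4 and 8 h without it (SD, n = 3).

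The gene for the noncoding RNA SPCC1919.13c-antisense-1 (SPNCRNA.1275) partly overlaps bdp1 on the opposite strand. It rose at 8 h over 0 h by 1.02 ± 0.10 with drug and by 1.25 ± 0.10 without, where bdp1 had 1.12 ± 0.06 and 0.57 ± 0.07. It also rose by 1.27 ± 0.10 at 4 h without drug, and at 4 h it fell by 1.06 ± 0.10 with drug against starved cells, where bdp1 rose by 1.04 ± 0.06.

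The antisense gene sfc3-antisense-1 (SPNCRNA.1546) overlaps sfc3 on the opposite strand. It fell at 8 h over 0 h by 1.25 ± 0.10 with drug and by 1.33 ± 0.10 without, where sfc3 had 1.11 ± 0.05 and 0.82 ± 0.05. sla1 partly overlaps mia40, a mitochondrial import gene, on the same strand. mia40 had 68.4 ± 1.64, 64.4 ± 6.82 and 63.8 ± 2.15 CPM at 2, 4 and 8 h with drug, and 121.7 ± 7.19, 109 ± 2.47, 134.9 ± 2.39 and 130.3 ± 6.08 CPM at 0, 2, 4 and 8 h without it (SD, n = 3), a course unlike that of sla1. sfc9 partly overlaps irs1 on the opposite strand, and irs1 fell without drug by 1.11 ± 0.04 at 4 h and 1.39 ± 0.04 at 8 h, in the direction in which sfc9 had -0.34 and -0.48. The part of these overlaps in the values of the 8 genes was not tested.

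For each gene, the courses of log2 level over the 7 groups were set against those of 4448 others with at least 5 CPM, by the root mean square difference after centring. Closest to brf1 were chs1 (chitin synthase, 0.106) and atg3 (autophagy, 0.156), closest to sfc6 were wip1 (CENP-W, 0.0899) and rad1 (checkpoint clamp, 0.0905), and closest to sla1 were rrs1 (ribosome biogenesis, 0.141) and prs1, with rpc40 the third. The nearest of all belonged to sfc9, cdc6 (DNA polymerase delta, 0.0324), and to sfc4, rnh202 (ribonuclease H2, 0.0382). Here too, genes with narrow ranges such as sfc4 and sfc9 tend to give small values. For bdp1, sfc1 and sfc3 the nearest were eos1 (0.0978), cut12 (0.0842) and rum1 (0.0985), and the median over all genes was 0.446 to 1.06 depending on the gene.

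The authors' deposited tables compare each starved group with 0 h, and for the 8 genes their 48 log2 fold changes differed from those given here by at most 0.06, with a median difference of 0.04.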

How the data were processed

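The authors deposited raw counts per gene, whole numbers for 6988 genes and 21 libraries. The submitters' processing notes name the build ASM294v2, the tools DESeq2 and DESeq, HTSeq 0.10.0, HISAT2 2.1.0 and SAMtools. No source used here gives their roles or whether counting used strand. The authors' comparison tables hold, per the file headers, log2 fold changes, a test score, p-values and a signal (group means of counts divided by size factors), and served for gene names and a side-by-side check.

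Counts were tested in edgeR 4.0.16 (R 4.3.3), with TMM scaling, the default low-count filter, which removed 596 genes, and 1 quasi-likelihood fit over all 7 groups, from which 14 comparisons were drawn. The standard error is the size of the log2 fold change divided by the square root of F. Library totals of 22079413 to 33563867 gave each of the 8 genes 281 or more counts in every library. Replicates of a group differed by more than sampling noise (chi-square per gene 3.66 to 23.6 over 21 pairs). Groups came from the sample titles, and the labels call the replicates biological. In the 4 comparisons of successive times within a course (4 h over 2 h and 8 h over 4 h, with and without drug), libraries of the same replicate number deviated together, with all 3 correlations between 0.109 and 0.383. Libraries of different numbers and groups had correlations of -0.513 to 0.527, so these values do not show that the numbers pair the samples. The labels name nothing that the numbers share. The values given for these 4 comparisons come from the fit without a replicate block, and a block was used only as an alternative.

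The members and gene lists were chosen with earlier results of these data known. The named genes were the 9 genes, sfc2, tbp1, maf1, snu6, srp7, antisense genes named after a member, up to 2 called genes per direction and list, and the genes with the most similar courses; overlapping neighbours, and the further called gene of the La-related list, were added after their values were seen. Levels per coding length and promoter motifs were not computed, as no sequences of the files' build were used here. sfc7 had no counts and left the TFIIIC ratio. Alternatives were a replicate block over all groups, and after the data were seen one within the compared groups for those 4 comparisons, each library left out, the compared groups only, DESeq2 1.42.0, scaling by RLE or by library size alone, and a low-count filter left out or raised to a mean of 100 counts. Overlaps between genes were read from the annotation of ASM294v3.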

Additional observations from a re-analysis of the deposited data

Results flagged for a closer look

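The effect of cycloheximide on sla1 differed between times, by a test of the difference itself. The log2 fold change of drug over no drug was 1.786 at 8 h and 0.2719 at 2 h, and the difference was 1.514 ± 0.07 (SE, adjusted p = 1.01e-15 in edgeR's quasi-likelihood test, n = 3 libraries per group). All 3 drug libraries lay above all 3 libraries without drug at both times. The difference ran from 1.459 to 1.559 over 19 alternatives, each library left out included, and was called in all 19. What lies behind it was not tested.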

How the results depend on the processing

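Of 1536 values of the 8 genes under all alternatives, 1481 kept their direction and call, 1 call was lost, 8 were gained, 46 uncalled values changed sign and no called value did. Leaving out each library in turn lost and gained no call. The number of the 8 genes called for cycloheximide at 4 h over 0 h was 2, and 4 with RLE size factors, with library size alone and in DESeq2, where bdp1 (1.02, 1.07 and 1.02) and sfc3 (1.02, 1.07 and 1.02) passed 2-fold; with the compared groups only, sfc3 gave 1.00. Other counts of called genes stayed within 1.5 times. Library size alone also ended the call of bdp1 at 4 h of drug over no drug (0.94). This scaling shifts the median of all genes to 0.202 at 4 h and 0.193 at 8 h over 0 h, 0.177 at 8 h of drug over 0 h, -0.135 at 4 h of drug over no drug and 0.121 at 4 h over 2 h. The share of called genes that were higher then was 79.3% (68.4% with TMM) at 2 h, 63.3% (50.4%) at 4 h and 65.1% (54.9%) at 8 h over 0 h, and 63.3% (47.2%) at 8 h of drug over 0 h.

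The values that changed sign were small and uncalled before and after. Library size alone turned 13: over 0 h, bdp1 0.066 and 0.13, sfc1 0.078 and 0.20 at 2 and 4 h, and sfc6 0.027 at 2 h without drug; 4 h over 2 h without drug, bdp1 0.059 and sfc1 0.12; sfc4 0.021 (2 h), 0.031 (4 h) and 0.10 (8 h, against -0.13) with drug over 0 h; and 8 h over 4 h of drug, brf1 0.12, sfc4 0.072 and sfc9 0.019 (against -0.11). RLE and DESeq2 turned the same 4 values, bdp1 (0.0068 and 0.0064) and sfc1 (0.0196 and 0.0196) at 2 h over 0 h, and sfc1 at 4 h over 0 h (0.01998 and 0.02014) and over 2 h (0.00039 and 0.00054). The stricter filter turned sfc1 at 4 h over 0 h (0.0098) and over 2 h (0.011) and sfc4 at 4 h over 2 h of drug (-0.014). With the compared groups only these were bdp1 (0.0103) and sfc1 (0.022) at 2 h and sfc1 (0.0015) at 4 h over 0 h, sfc4 (-0.028) and sfc9 (-0.0109) at 4 h over 2 h of drug, and brf1 (0.034) at 8 h over 4 h of drug. Leaving out single libraries gave -0.054 to 0.0088 for bdp1 and -0.0105 to 0.00054 for sfc1 at 2 h over 0 h, -0.017 to 0.0027 and -0.0105 to 0.0093 for sfc1 at 4 h over 0 h and over 2 h, -0.044 to 0.061 for sfc4 at 4 h over 2 h of drug, -0.018 to 0.014, -0.10 to 0.0027 and -0.012 to 0.055 for brf1, sfc4 and sfc6 at 8 h over 4 h of drug, and -0.062 to 0.029 and -0.16 to 0.031 for the drug by time differences of sfc4 and sfc6.

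In the other 9 comparisons of 2 groups, not every same-number correlation was over 0.1. Over all groups same-number libraries had correlations of -0.408 to 0.477, over 0.1 in 26 of 63 pairs, and libraries of other numbers -0.513 to 0.527. With the replicate number as a block over all 7 groups, all 112 values, called or not, kept their direction and call status. As without it, 2 genes were called at 8 h over 0 h and 4 at 8 h of drug over 0 h. With the block within the compared groups, chosen after the data were seen, the 4 comparisons of successive times kept their calls (sla1 at 4 h over 2 h, -1.36), and sfc4 (-0.029) and sfc9 (-0.011) at 4 h over 2 h of drug and brf1 (0.034) at 8 h over 4 h of drug changed sign, all uncalled.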
